A study of Mus musculus with 18 samples.

Results

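Cytosolic ribosomal proteins are the protein parts of the ribosome outside mitochondria, and their transcripts were followed here through B cell maturation, CD40L culture and loss of Sh3gl1, the gene of endophilin A2. The genes were chosen by name: protein-coding genes whose symbol starts with Rpl or Rps followed by a number, together with Rplp0, Rplp1, Rplp2 and Rpsa, without S6 kinase genes, without pseudogenes and without Rpl36, which lies near Sh3gl1. This gave 85 of the 51912 genes in the table, 51 with large subunit symbols and 34 with small subunit symbols. The name rule also took in Rps19bp1, a nucleolar protein that binds Rps19 and is not part of the ribosome.

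The mice were C57BL/6 and were either wildtype (WT) or Sh3gl1-/- littermates, in which the gene is missing from every cell type. Transitional B cells, the recent bone marrow emigrants, and follicular B cells, the mature recirculating cells, were sorted by flow cytometry from both genotypes and left untreated. Follicular cells of both genotypes were also treated with CD40L, the ligand by which T cells help B cells, for 14 h by the labels, whereas the study's text describes the culture as overnight and elsewhere gives a longer time. Each of the 6 groups had 3 biological replicates, which gave 18 libraries with 12404688 to 18366078 expected counts.

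The ribosome has a small subunit, which reads the messenger RNA, and a large subunit, which joins amino acids. Ribosomal protein genes are transcribed at high and similar rates, and most of their transcripts begin with a pyrimidine tract (the TOP motif) through which mTOR signalling controls their translation, so that the transcript level need not follow protein synthesis. Resting lymphocytes are small cells with few ribosomes, and ribosome production is known to rise when they are activated.

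A pyrimidine run was searched in the reference sequences of the transcript starts, because the genes share this feature outside the rule that chose them. Of the 85 genes, 66 had a start sequence in RefSeq (GRCm38.p6). A C followed by at least 6 further C or T bases lay between 10 bases before and 30 bases after the start in 34 of these 66 genes (51.5%), against 5301 of all 27025 genes with a start (19.6%). On the opposite strand the same run was found in 5 of the 66 (7.6%) and in 24.3% of all genes. The letters CTTTC stood in the window of 19 genes (28.8%), against 5.7% of all genes, and on the opposite strand in 9.1% and 6.0%. The starts below belong to 4 of the genes whose values are described in detail and run from 10 bases before the start to 20 bases into the transcript, with the first pyrimidine run in capitals.
Rps27 (chr3:90213629-90213658, minus strand): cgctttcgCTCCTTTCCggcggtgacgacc
Rps27l (chr9:66946076-66946105, plus strand): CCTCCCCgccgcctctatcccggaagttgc
Rplp2 (chr7:141447641-141447670, plus strand): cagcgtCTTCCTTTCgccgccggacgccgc
Rpl7a (chr2:26910797-26910826, plus strand): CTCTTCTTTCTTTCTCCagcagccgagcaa
The run shown for Rps27l ends before the start and so lies outside the transcript, yet it counts among the 34. A match describes letters in a window and is no test of a regulator.

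The libraries were first checked against their labels. Sh3gl1 had 377 to 929 counts in WT libraries and 1 to 22 in Sh3gl1-/- libraries. The summed level of 4 transitional markers (Cd93, Cd24a, Vpreb3 and Rag1) was 874 to 1009 CPM (counts scaled to a common library size) in WT transitional cells and 374 to 459 in WT follicular cells, and 505 to 804 and 299 to 313 in the Sh3gl1-/- groups. Red cell markers (7 genes, including the globins) were found in the sorted cells at a summed 1434 to 3867 CPM in WT follicular and 3005 to 9365 CPM in Sh3gl1-/- follicular libraries, but at 6.56 to 362 CPM after culture. Neutrophil markers (7 genes) summed to 61.6 to 179 CPM in WT and 179 to 801 CPM in Sh3gl1-/- follicular libraries. Plasma cell markers (4 genes) summed to 429 to 669 CPM in WT and 1086 to 4566 CPM in Sh3gl1-/- transitional libraries. The part of these cells in the results below was not tested. WT transitional replicate 1 stood apart from its group: its 82 measurable ribosomal protein genes lay a median 0.24 below their group means on the log2 scale, and 6 of the 82 lay above.

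Ribosomal protein transcripts took a growing share of all counts from transitional to follicular to CD40L-cultured cells. The share was 3.58%, 4.39% and 4.45% in the 3 WT transitional libraries and 4.43%, 4.26% and 4.52% in the Sh3gl1-/- transitional libraries. It was 5.30%, 5.29% and 5.81% in WT follicular libraries and 6.44%, 5.84% and 6.68% in Sh3gl1-/- follicular libraries. After CD40L it was 8.28%, 7.26% and 7.85% in WT and 7.91%, 7.53% and 7.17% in Sh3gl1-/- libraries. The 3 cell states did not overlap, and within follicular cells the Sh3gl1-/- libraries all lay above the WT libraries, by a narrow margin. The share rose in both subunits, from a median of 2.53% to 2.97% to 4.55% for large and from 1.84% to 2.34% to 3.30% for small subunit genes in WT cells. A share of counts cannot tell more transcripts per cell from a change in the number of contributing cells or in the other RNA of the cell.

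**Figure D1:**
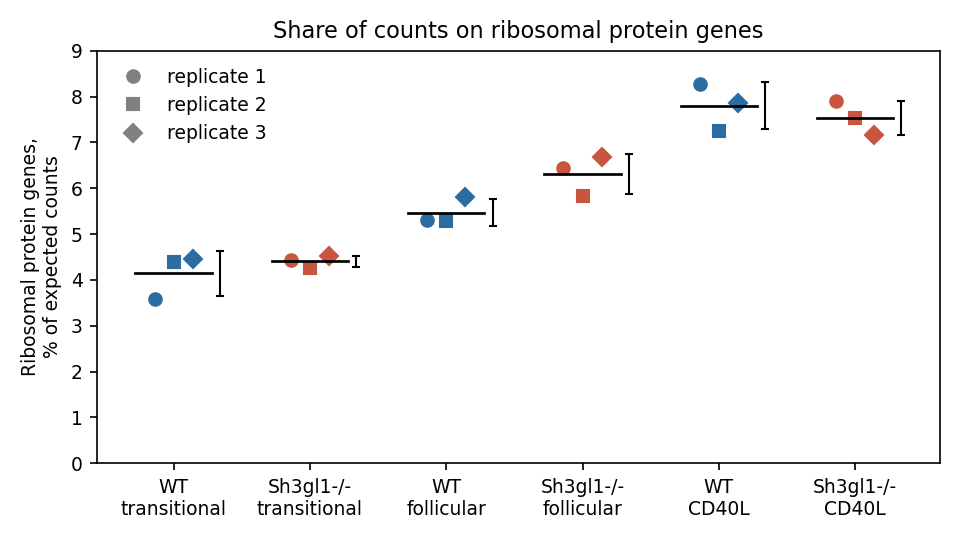
Share of expected counts (%) on the 85 ribosomal protein genes in each of the 18 libraries. Points are replicates 1 to 3 (circle, square, diamond; WT blue, Sh3gl1-/- red), horizontal bars are group means and the brackets beside them SD (n = 3); the share rose from 3.58% to 4.52% in transitional to between 5.29% and 6.68% in follicular and 7.17% to 8.28% in cultured cells.

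The genes differed widely in level. On the TPM scale, which corrects for transcript length, the median of the genes listed above 0 was 720 in WT transitional, 886 in WT follicular and 1372 in WT CD40L-cultured cells. Rps27, a small subunit protein with a zinc finger, had the highest value in the 4 ex vivo groups, at a median TPM of 8047 in WT transitional and 13160 in WT follicular cells. Rps19, whose human counterpart is mutated in Diamond-Blackfan anaemia, was highest after CD40L, at 9697 in WT and 9636 in Sh3gl1-/- cells. At the other end, Rpl10l, a testis paralog of Rpl10, had 0 counts in all 18 libraries, which allows up to 3 counts in each by counting error alone. The muscle paralog Rpl3l and the testis paralog Rpl39l had at most 8 and 13 counts in any library. These 3 genes were not measurable, and 82 genes passed the filter on low counts in the ex vivo comparisons, or 83 with Rpl39l in those with cultured cells.

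The members shared reads with copies of themselves, which limits what a value of 1 gene can say. Ribosomal protein genes have left many processed pseudogenes, intronless copies of their messenger RNA, in mammalian genomes. By sequence (blastn, at least 90% identity over at least 80% of the copy), 972 other annotated genes matched 81 of the 85 genes, and 266 genes of the table are named as pseudogenes of this family. Copies took 12.2% to 15.2% of the counts of members and copies in each library. For most genes the copies took little, with a median of 1.62%, but they took over 10% for 30 genes and over 50% for 9. Rpl5, a large subunit protein that carries 5S RNA and binds Mdm2, kept only a small part, since its copies took 94.8%. The copies of Rpl27 took 87.2% and those of Rpl12 70.6%.

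In 5 genes the division between gene and copies followed the replicate number of a genotype and not the cell state. They were Rpl3, Rpl30 and Rpl34 of the large and Rps2 and Rps3a1 of the small subunit, and they were singled out after their values were seen. Rpl3, a core protein near the peptidyl transferase centre, kept 98.0% to 98.6% of the summed counts in replicates 1 and 2 of WT cells in all 3 states. It kept 61.4% to 64.0% in replicate 3 of WT cells and 60.5% to 63.8% in all Sh3gl1-/- libraries. Rpl34 kept 57.7% to 60.6% in WT replicates 1 and 2 and in Sh3gl1-/- replicate 1, but 18.3% to 21.2% in WT replicate 3 and in Sh3gl1-/- replicates 2 and 3. Rps3a1 kept 56.0% to 60.0% in 15 libraries and 16.9% to 18.5% in the 3 libraries of Sh3gl1-/- replicate 3. Rpl30 kept 94.8% to 96.6% in WT replicate 1 and Sh3gl1-/- replicate 2 and 59.7% to 64.2% in the other libraries. Rps2 kept 69.3% to 75.0% in WT replicate 2 and Sh3gl1-/- replicates 1 and 3 and 95.3% to 98.1% elsewhere. Every replicate number of a genotype was on the same side in transitional, follicular and cultured cells for all 5 genes, with a spread over the 3 states of at most 5.75 percentage points. The other 73 of 78 genes with counted copies ranged over less than 20 points across the 18 libraries, and 70 of them under 10. The cause of the division was not tested.

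**Figure D2:**
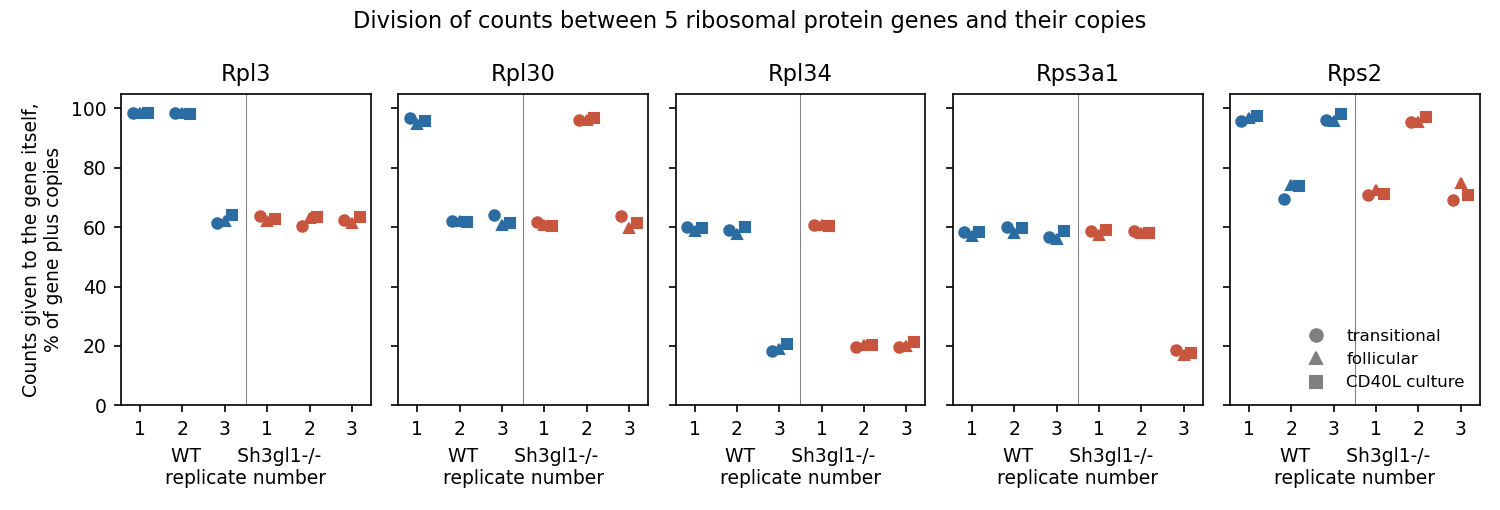
Counts assigned to the gene itself as a percentage of gene plus sequence-matched copies, for 5 genes, by replicate number (1 to 3) of WT (blue) and Sh3gl1-/- (red) mice in transitional (circle), follicular (triangle) and CD40L-cultured (square) libraries. The 3 states of one replicate number fall together, for example at 16.9% to 18.5% for Rps3a1 in Sh3gl1-/- replicate 3.

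The copies differ from these genes by few bases. In the lines below, each pair shows 30 bases of the gene's coding sequence and the matching stretch of its most counted copy, with the base that differs in capitals. Positions count from the A of the start codon. Rpl34-ps1 (chr6:71124610-71124963, plus strand) differs from Rpl34 by 2 substitutions in 354 bases, T132C and C318G. Rpl3-ps1 (chrX:13202571-13203780, plus strand) differs from Rpl3 by C57A and T786C in 1209 aligned bases. Gm12191 (chr11:49678710-49679057, minus strand) differs from Rpl30 by the single change G96A in 348 bases. Rps3a3 (chr13:108670603-108671397, plus strand) differs from Rps3a1 by 9 substitutions in 795 bases, of which the first is T216C. All 4 are annotated as processed pseudogenes in GENCODE M21 (GRCm38).
Rpl34, bases 117 to 146: gaaagcacctaaatcTgcatgtggcgtgtg
Rpl34-ps1: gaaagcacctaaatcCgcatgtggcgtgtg
Rpl3, bases 42 to 71: gggcttcctgcctcgCaagcgcagcagccg
Rpl3-ps1: gggcttcctgcctcgAaagcgcagcagccg
Rpl30, bases 81 to 110: cgtgctgggctacaaGcagactctgaagat
Gm12191: cgtgctgggctacaaAcagactctgaagat
Rps3a1, bases 201 to 230: tgaagtgagccttgcTgatctacagaatga
Rps3a3: tgaagtgagccttgcCgatctacagaatga

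Follicular cells were compared with transitional cells to follow the genes through maturation. In WT cells 58 of 82 ribosomal protein genes rose and 0 fell (edgeR's quasi-likelihood test, adjusted p under 0.05), where 11.7% of all 14580 genes tested rose and 14.2% fell. In Sh3gl1-/- cells 70 of 82 rose and 0 fell, where 3.70% of all genes rose and 6.71% fell. The median log2 fold change of the 82 genes was 0.40 in WT and 0.50 in Sh3gl1-/- cells, against 0.03 and 0.00 over all genes. At an unadjusted p under 0.05, 1 gene (Rpl7l1) was lower in WT and 0 in Sh3gl1-/- cells, against 19.8% and 13.8% of all genes. DESeq2 called 1 gene lower in WT cells, the same gene. The WT count fell to 34 when follicular replicate 3 was left out and to 41 (40 higher, and Rpl7l1 lower) without transitional replicate 1, which moved the median from 0.40 to 0.29. In 56 genes the rise passed the test in both genotypes. The genes move together within a library, so these counts are not of independent genes. Macrophage or monocyte markers (7 genes) moved with this comparison: they summed to 531 to 641 CPM in WT transitional and 117 to 150 CPM in WT follicular libraries, and to 486 to 857 and 122 to 279 CPM in Sh3gl1-/- cells. Of the 7, all fell in WT and 6 in Sh3gl1-/- cells. Plasma cell markers (4 genes) summed to 429 to 669 CPM in WT transitional and 64.0 to 128 CPM in WT follicular libraries. In Sh3gl1-/- cells they summed to 1086 to 4566 and 143 to 177 CPM, and 1 of 4 fell in each genotype. T cell markers (8 genes) went the other way, with 3 higher in WT and 2 in Sh3gl1-/- cells. The part of these cells in the rise was not tested. The median log2 fold change was 0.39 for large and 0.44 for small subunit genes in WT cells.

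Rps27 (chr3:90212522-90213651, minus strand) had the lowest p in both genotypes. Its level was 1474, 1673 and 1722 CPM in WT transitional and 2794, 2716 and 2968 CPM in WT follicular libraries. In Sh3gl1-/- cells it was 1804, 1776 and 1959 CPM and then 3347, 2937 and 3678 CPM. The follicular libraries all lay above the transitional libraries, and the rise on the log2 scale was 0.81 ± 0.08 (± SE throughout; edgeR adjusted p = 2.0e-05) in WT and 0.84 ± 0.08 (adjusted p = 2.6e-05) in Sh3gl1-/- cells. Rps21, a small subunit protein, rose from 72.6, 98.5 and 97.9 CPM to 156, 142 and 157 CPM in WT cells. On the log2 scale the rise was 0.77 ± 0.13 (edgeR adjusted p = 0.00076). Rpl13a, a large subunit protein also known for silencing inflammatory transcripts, rose from 1118, 1310 and 1208 to 1557, 1564 and 1677 CPM in WT cells, by 0.41 ± 0.07 on the log2 scale. Rpl37a, Rps19 and Rpl35 rose by 0.69, 0.67 and 0.56 in Sh3gl1-/- cells. Short transcripts rose somewhat more: over the 82 genes the fold change and the effective length had a Spearman correlation of -0.42 in WT and -0.36 in Sh3gl1-/- cells, a description across genes that share the same libraries.

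Rplp0 and Rps6, genes with large roles, moved little in WT cells. Rplp0, the base of the stalk that recruits elongation factors, was at 1456, 1819 and 1839 CPM in WT transitional and 1635, 1806 and 2192 CPM in WT follicular libraries, which overlap (log2 fold change 0.15 ± 0.10, edgeR adjusted p = 0.32). In Sh3gl1-/- cells it rose by 0.55 ± 0.10 (adjusted p = 0.0033 by edgeR). Its stalk partners Rplp1 and Rplp2 rose in both genotypes, by 0.43 and 0.56 in WT and by 0.55 and 0.61 in Sh3gl1-/- cells. Rps6, the small subunit protein that S6 kinases phosphorylate, had a fold change of 0.15 (adjusted p = 0.15 by edgeR) in WT and rose by 0.48 in Sh3gl1-/- cells. The difference between the genotypes in the response to maturation was called for 0 of 82 genes (0.0686% of all genes; edgeR), with 6 at an unadjusted p under 0.05 (13.7% of all genes) and 2 (Rpl37a and Rps6) called by DESeq2. Rpl37a, with the lowest p, differed by 0.49 ± 0.12 (adjusted p = 0.13 by edgeR), and Rps6 by 0.34 ± 0.10 (adjusted p = 0.19).

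The machinery that builds ribosomes was read against the same shares of all genes, 11.7% higher and 14.2% lower in WT and 3.70% and 6.71% in Sh3gl1-/- cells. Of 32 assembly factors, such as nucleolin and fibrillarin, 5 rose and 8 fell in WT cells and 3 rose and 0 fell in Sh3gl1-/- cells, with medians of -0.08 and 0.12 on the log2 scale. Of 78 mitochondrial ribosomal proteins 3 rose and 4 fell in WT, and 2 rose and 0 fell in Sh3gl1-/- cells. Of 9 RNA polymerase I genes 0 rose and 2 fell in WT cells, and none of the 9 was called in Sh3gl1-/- cells. Of 14 translation factors, several of which are also TOP transcripts, 2 rose and 1 fell in WT and 7 rose in Sh3gl1-/- cells. Fau and Rack1, ribosomal proteins whose names do not follow the family's pattern, rose in both genotypes. Their log2 fold changes were 0.50 and 0.29 in WT cells.

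**Figure D3:**
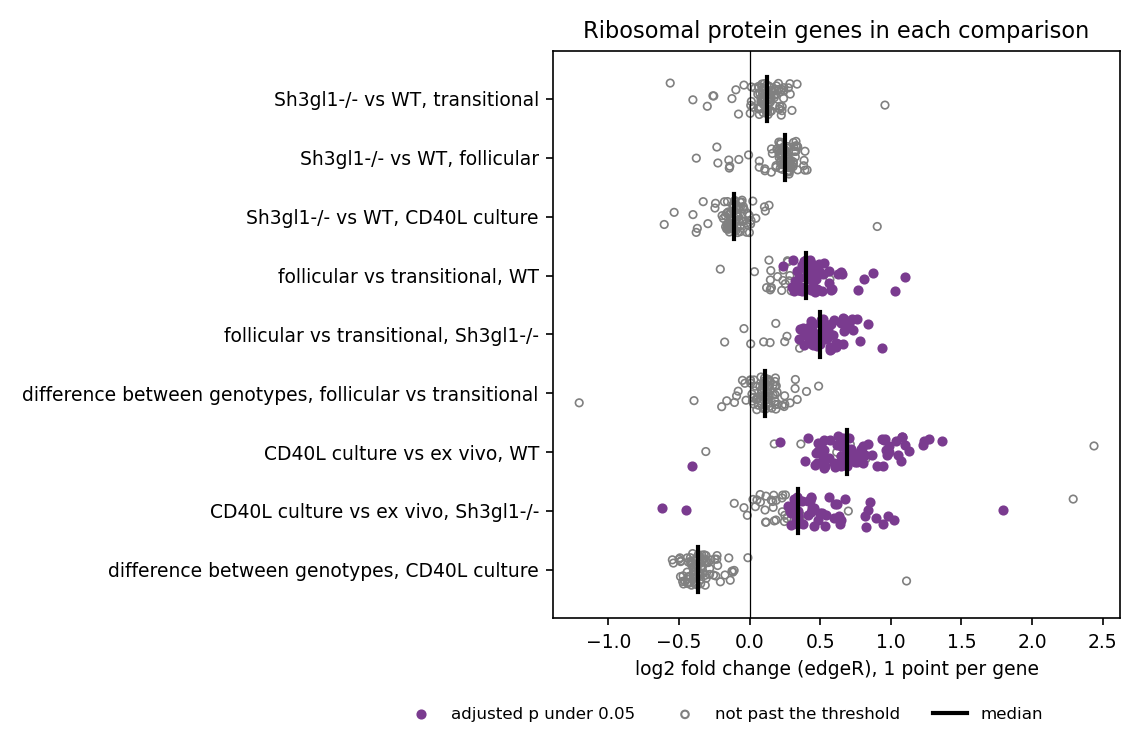
Log2 fold change (edgeR) of each tested ribosomal protein gene in the 9 comparisons, 1 point per gene, filled where the adjusted p is under 0.05, with the median as a bar. Medians lie at 0.40 and 0.50 for follicular against transitional cells, 0.69 and 0.34 for CD40L culture against ex vivo cells of WT and Sh3gl1-/- mice, and -0.36 for the difference between those 2 responses.

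CD40L-cultured follicular cells were compared with follicular cells ex vivo to follow the genes through activation. The comparison takes in the culture as well as CD40L, since cells cultured without CD40L were not analysed here. In WT cells 73 of 83 genes rose and 1 fell, where 23.6% of all 14460 genes rose and 25.7% fell. In Sh3gl1-/- cells 47 of 83 rose and 2 fell, where 20.6% rose and 21.8% fell. The median log2 fold change of the 83 genes was 0.69 in WT and 0.34 in Sh3gl1-/- cells, against -0.08 and -0.03 over all genes. In 46 genes the rise passed the test in both genotypes, in 27 in WT cells alone and in 1 in Sh3gl1-/- cells alone. As with maturation, these counts are not of independent genes. Most markers of other cells were lower after culture: T cell markers (8 genes) went from 160 to 189 CPM to between 64.2 and 103 CPM in WT and from 237 to 278 CPM to between 82.6 and 106 CPM in Sh3gl1-/- cells. NK cell markers (5 genes) went from 26.5 to 85.0 CPM to between 2.02 and 3.08 CPM in WT and from 62.2 to 88.8 CPM to between 2.68 and 4.48 CPM in Sh3gl1-/- cells. All 8 T cell, 5 NK cell and 6 tested red cell markers fell in both genotypes, as did 6 of 6 tested neutrophil markers in WT and 5 of 6 in Sh3gl1-/- cells. Of 6 tested macrophage or monocyte markers 4 fell and 1 rose in both genotypes. In Sh3gl1-/- cells 3 of 4 dendritic markers fell and 1 rose, and 2 of 4 plasma cell markers fell and 1 rose. The part of these cells in the rise of the ribosomal protein genes was not tested. A call in a single genotype does not show a difference between them, which is tested below.

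Rplp2, one of the paired acidic stalk proteins, had the lowest p in WT cells. Its level was 279, 251 and 260 CPM ex vivo and 692, 596 and 658 CPM after CD40L in WT cells. In Sh3gl1-/- cells it was 339, 287 and 353 CPM and then 600, 629 and 563 CPM. The groups did not overlap, and the log2 fold change was 1.27 ± 0.10 (adjusted p = 3.2e-07 by edgeR) in WT and 0.85 ± 0.10 (adjusted p = 1.5e-05) in Sh3gl1-/- cells. Rplp0 rose by 1.23 and 0.82, and Rplp1 by less, 0.70 in WT and 0.33 in Sh3gl1-/- cells. Rpl7a, a large subunit protein, rose from 402, 398 and 408 to 882, 785 and 935 CPM in WT cells, by 1.08 ± 0.09 on the log2 scale (adjusted p = 3.5e-07 by edgeR). Rpl29 rose by 1.13 in WT and 0.82 in Sh3gl1-/- cells. Rpl10, which joins the large subunit last and completes its maturation, rose by 0.96 and 0.62. Rps12, of whose summed counts the copies held 44.7%, rose by 1.23 and 0.89. Rpsa, which doubles as a laminin receptor, rose by 1.07 and 0.60, and Rps6 by 0.95 and 0.51. Rpl4 rose by 0.80 and 0.44, and Rps19 by 0.80 and 0.43.

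Rps27, by contrast, fell. From 2794, 2716 and 2968 CPM ex vivo it went to 2471, 2004 and 2024 CPM after CD40L in WT cells, and from 3347, 2937 and 3678 to 2244, 2463 and 1865 CPM in Sh3gl1-/- cells. The cultured libraries all lay below the ex vivo libraries, with log2 fold changes of -0.41 ± 0.11 (adjusted p = 0.0088 by edgeR) and -0.62 ± 0.12 (adjusted p = 0.00070). It was the only gene of the 83 that fell in WT cells, and the gene with the highest TPM ex vivo. Rps27rt, a retrogene of Rps27 (chr9:114982366-114982739, minus strand), fell in Sh3gl1-/- cells by 0.45 (log2 fold change -0.45 ± 0.17, adjusted p = 0.043 by edgeR, and 0.058 with a separate replicate block within each genotype) and had a fold change of -0.31 (adjusted p = 0.14) in WT cells. The coding sequences of Rps27 and Rps27rt are identical over all 255 bases, so the 2 values rest on how the counting divided shared reads. Genes with higher TPM rose less, with a Spearman correlation of -0.36 in WT and -0.45 in Sh3gl1-/- cells over 83 genes.

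**Figure D4:**
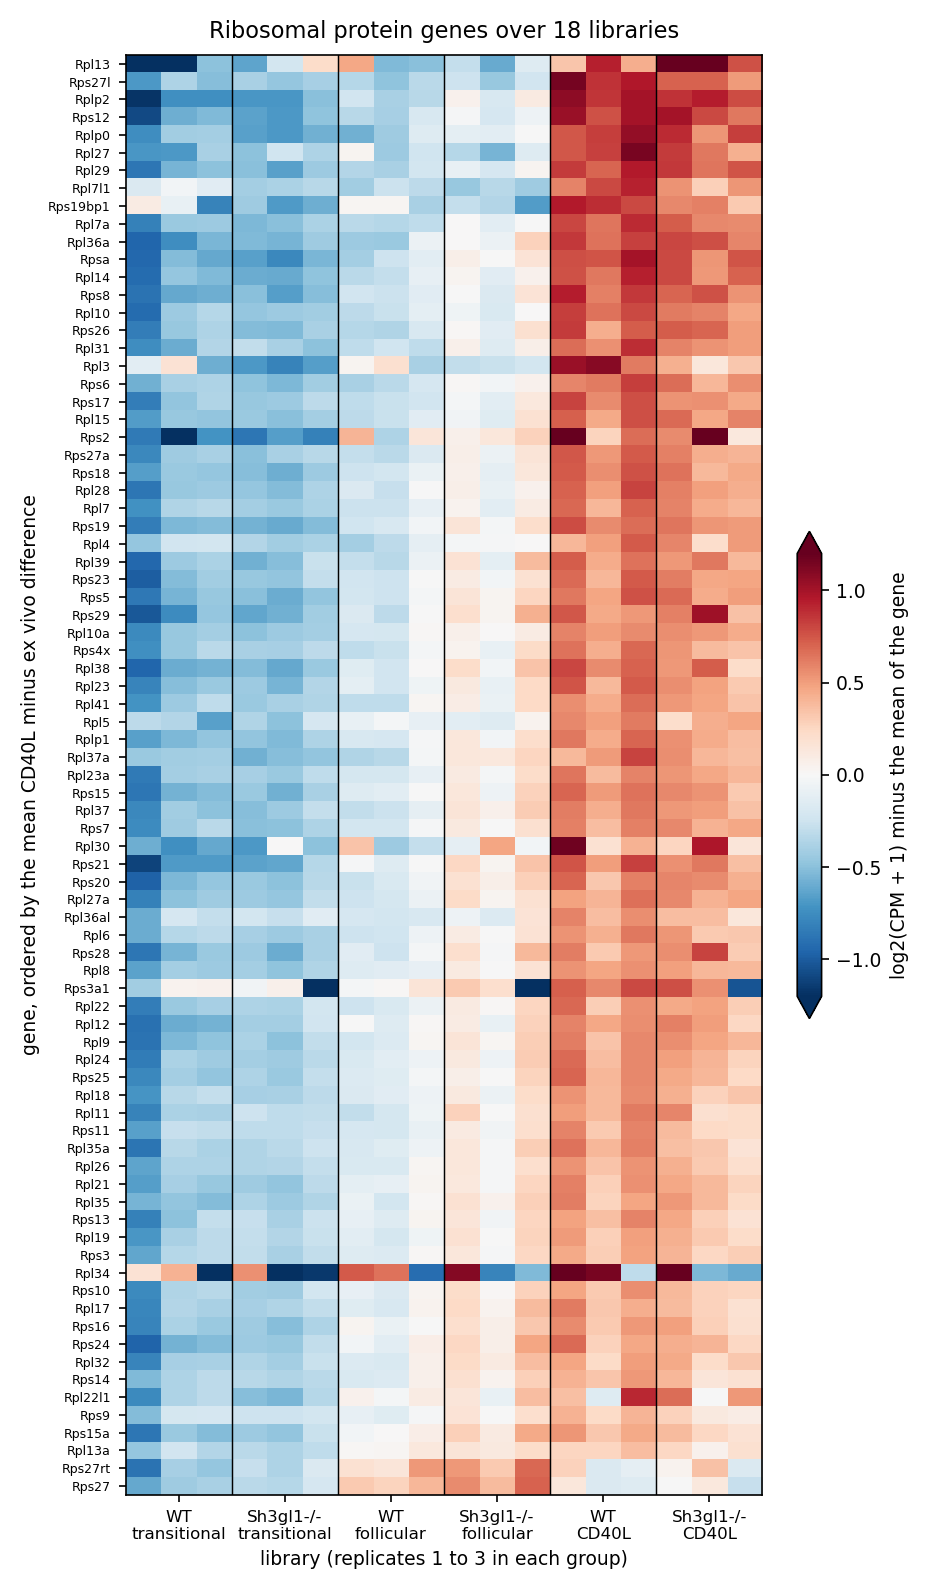
Level of 81 ribosomal protein genes in 18 libraries, as log2(CPM + 1) minus the mean of the gene, with colours cut at the ends of the scale; rows are ordered by the mean difference of CD40L-cultured from ex vivo follicular cells. Rps27 and Rps27rt, at the foot, are high in follicular libraries, and Rpl34, Rps3a1, Rpl3, Rpl30 and Rps2 show single libraries that break with their group.

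Around the ribosome, CD40L culture raised most of the lists. The counts are read against the shares of all genes, 23.6% higher and 25.7% lower in WT and 20.6% and 21.8% in Sh3gl1-/- cells. Assembly factors rose in 31 of 32 genes in WT and 29 of 32 in Sh3gl1-/- cells, with medians of 1.18 and 0.84 on the log2 scale. Translation factors rose in 12 of 14 in both genotypes. Mitochondrial ribosomal proteins rose in 67 and 60 of 78, and subunits of the respiratory chain in 71 and 59 of 83. RNA polymerase I genes rose in 8 of 9 in WT and 3 of 9 in Sh3gl1-/- cells. Of 10 regulators of ribosomal protein synthesis (among them Larp1, Mtor and Myc) 2 rose and 2 fell in WT cells, and 1 rose and 2 fell in Sh3gl1-/- cells. Fau, whose product is cleaved to give a small subunit protein, had a log2 fold change of -0.15 in WT (edgeR adjusted p = 0.18) and fell by 0.33 in Sh3gl1-/- cells. Rack1 rose by 0.99 and 0.61.

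The log2 fold change with CD40L culture was lower in Sh3gl1-/- cells for nearly every gene, but no gene passed the test of that difference. For genes that rose, lower means a smaller rise, and for Rps27 and Rps27rt it means a larger fall. The difference between genotypes was called for 0 of 83 genes and 0% of all genes by edgeR and for 0 by DESeq2, with 59 of 83 at an unadjusted p under 0.05, where 8.84% of all genes reached that value. It was negative for 82 of 83 genes (49.4% of all genes), with a median of -0.36 against 0.01 over all genes. Rpl35a, with the lowest p, differed by -0.55 ± 0.15, Rps27a by -0.49 ± 0.13, Rpl7a by -0.44 ± 0.12 and Rps6 by -0.44 ± 0.13 (adjusted p = 0.47 for each by edgeR). The genes move together within a library, so the 83 values are not independent. Both ends of the response enter this median: ex vivo the Sh3gl1-/- cells had the higher and after CD40L the lower median level. The responses to maturation and to CD40L share the follicular libraries of each genotype. Most of the other lists also had a median difference below 0 in the CD40L response. It was -0.40 for assembly factors, -0.33 for translation factors and -0.27 for RNA polymerase I genes. Mitochondrial ribosomal proteins had -0.23, respiratory chain subunits -0.22 and the regulators 0.13.

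Sh3gl1-/- and WT cells were also compared within each state. In follicular cells 0 of 82 genes were called by edgeR (0.845% of all 13610 genes), whereas DESeq2 called 20, all higher in Sh3gl1-/- cells. At an unadjusted p under 0.05, 63 of 82 genes were higher and 0 lower in Sh3gl1-/- follicular cells, where 5.36% of all genes were higher and 5.52% lower. In 39 genes all Sh3gl1-/- libraries lay above all WT libraries (8.06% of all genes), and in 0 below (7.98%). The median log2 fold change was 0.25 against 0.00 over all genes. The genes moved together within a library: 4 of 82 lay above the group mean in Sh3gl1-/- follicular replicate 2 and 77 in replicate 3. These counts are therefore not of independent genes, and they rest on 3 libraries against 3. Rps6 had the lowest p: 843, 884 and 960 CPM in WT and 1116, 1079 and 1145 CPM in Sh3gl1-/- follicular libraries, a log2 fold change of 0.31 ± 0.07 (adjusted p = 0.064 by edgeR). Rpl37 and Rpl37a, both of the large subunit, had fold changes of 0.39 ± 0.09 and 0.41 ± 0.09 (adjusted p = 0.084 and 0.086), Rps27a 0.31 and Rpl7a 0.28. All 14 translation factors lay above 0 in this comparison too, at a median of 0.18, with 0 called. Medians were 0.08 for RNA polymerase I genes, 0.06 for assembly factors and for mitochondrial ribosomal proteins, and 0.04 for respiratory chain subunits. The red cell and neutrophil markers given above were also higher in the Sh3gl1-/- group, with overlapping ranges. T cell markers (8 genes) summed to 160 to 189 CPM in WT and 237 to 278 CPM in Sh3gl1-/- follicular libraries, which do not overlap. The part of these cells in the values of the ribosomal protein genes was not tested.

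Of the 8 genes with a fold change below 0 between genotypes in follicular cells, 5 turned above 0 when the counts of their copies were added. Rpl3 was at 1226, 1373 and 918 CPM in WT and 981, 1000 and 1032 CPM in Sh3gl1-/- follicular libraries, a log2 fold change of -0.22 ± 0.12 (adjusted p = 0.55 by edgeR). With its copies added, it was at 1245, 1393 and 1479 CPM in WT and 1577, 1586 and 1684 CPM in Sh3gl1-/- libraries, and the fold change became 0.24 (adjusted p = 0.20). In the same way Rps3a1 went from -0.14 to 0.29, Rpl34 from -0.14 to 0.24 and Rpl5 from -0.01 to 0.28. With copies added for all genes, 79 of 82 fold changes were above 0 in follicular cells, against 74 without (49.4% of all genes). Among the 3 below 0 were Rps19bp1, at -0.38 alone and with copies, and Rpl7l1, at -0.08 alone and -0.07 with copies.

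In transitional cells red cell markers summed to 2285 to 3979 CPM in WT and 4451 to 9532 CPM in Sh3gl1-/- libraries, which do not overlap, and 6 of 6 tested were called higher. Neutrophil markers summed to 51.3 to 93.2 CPM in WT and 114 to 563 CPM in Sh3gl1-/- libraries, also without overlap, and 1 of 6 was called higher. Their part in the values that follow was not tested. In transitional cells 0 of 82 genes were called (3.73% of all genes by edgeR) and DESeq2 called 2, Rpl3 and Rpl7l1, both lower. At an unadjusted p under 0.05 there were 7 (21.8% of all genes), and the median log2 fold change was 0.12 against 0.02 over all genes, or 0.02 without WT transitional replicate 1. In CD40L-cultured cells 0 of 83 were called by edgeR (0.0227% of all genes), 1 (Rpl3, lower) by DESeq2 and 4 at an unadjusted p under 0.05 (7.07% of all genes), and the median was -0.11 against 0.01. Rpl3 had the lowest p in both states, at -0.56 ± 0.16 (adjusted p = 0.082 by edgeR) in transitional and -0.60 ± 0.15 (adjusted p = 0.38) in cultured cells. With its copies added these became -0.10 and -0.17. Rpl13 varied widely among replicates of some groups, at 42.8, 43.2 and 91.9 CPM in WT transitional and 493, 368 and 220 CPM in Sh3gl1-/- cultured libraries. In Sh3gl1-/- follicular libraries it was at 106, 85.0 and 116 CPM. Its fold changes were 0.96 ± 0.30 (adjusted p = 0.11) in transitional and 0.90 ± 0.27 (adjusted p = 0.54) in cultured cells.

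Paralogs within the family allowed a comparison inside each library, since the ratio of the TPM of 2 genes does not depend on library scaling. In 4 pairs both partners were well measured, and their log2 ratios were compared over samples by two-sided exact permutation of the labels, within genotype for the states and within state for the genotypes. These 12 tests were added after the values had been seen, and their p-values were adjusted over the 12. The smallest unadjusted p that the design allows was 0.005 for the states and 0.00025 for the genotypes. These tests take the libraries of a genotype with the same replicate number as independent, which they may not be. With such libraries taken as 1 unit, the smallest exact permutation p was 0.1 for the genotypes (3 units against 3) and 0.031 for the states (sign changes over 6 units). For Rps27l, Rpl7l1 and Rpl36al every comparison stood at that smallest p, with adjusted p-values of 0.13 for the genotypes and 0.063 for the states, so that no ratio passed the threshold in that design.

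Rps27l, a p53 target whose protein can replace Rps27 in the ribosome, was the paralog that moved most. Its coding sequence has the same 255 bases in length as that of Rps27 and is identical in 76.1% of them, with 24 of the first 90 bases different (capitals).
Rps27: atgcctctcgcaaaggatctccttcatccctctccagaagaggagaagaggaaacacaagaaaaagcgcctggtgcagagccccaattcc
Rps27l: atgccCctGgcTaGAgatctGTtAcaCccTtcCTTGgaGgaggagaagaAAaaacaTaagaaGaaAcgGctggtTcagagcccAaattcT
Rps27l (chr9:66946086-66949516, plus strand) was at 89.1, 80.7 and 90.4 CPM in WT follicular and 252, 207 and 222 CPM in WT cultured libraries, and at 94.9, 81.9 and 96.4 and then 186, 185 and 161 CPM in Sh3gl1-/- cells. The cultured libraries all lay above, with log2 fold changes of 1.36 ± 0.11 (adjusted p = 4.0e-07 by edgeR) and 0.94 ± 0.11 (adjusted p = 1.4e-05). With maturation it had fold changes of 0.15 in WT (adjusted p = 0.29) and 0.10 in Sh3gl1-/- cells (adjusted p = 0.61 by edgeR). The TPM of Rps27l was a mean 3.01% of that of Rps27 in WT transitional, 1.91% in WT follicular and 6.52% in WT cultured cells, and 2.84%, 1.71% and 5.06% in Sh3gl1-/- cells. The log2 ratio fell by 0.69 with maturation and rose by 1.67 with CD40L culture (exact permutation p = 0.005, adjusted p = 0.0075 for both). Between Sh3gl1-/- and WT cells it differed by a mean log2 difference of -0.20 over the 3 states (exact permutation p = 0.001, adjusted p = 0.0075, and p = 0.1 with numbers as units), with differences of -0.08, -0.16 and -0.37 in transitional, follicular and cultured cells. Between WT and Sh3gl1-/- cultured cells the fold change of Rps27l itself was -0.33 ± 0.13 (adjusted p = 0.68 by edgeR).

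Rpl7l1, a relative of Rpl7 with 50.1% identity in the coding sequence, works in ribosome assembly. With CD40L it rose by 1.08 ± 0.11 in WT and 0.84 ± 0.11 in Sh3gl1-/- cells (adjusted p = 2.0e-06 and 2.5e-05 by edgeR). With maturation its fold changes were -0.21 in WT (adjusted p = 0.052, and 0.031 with a separate replicate block within each genotype) and -0.04 in Sh3gl1-/- cells (adjusted p = 0.81 by edgeR). Its log2 TPM ratio to Rpl7 fell by 0.45 with maturation (exact permutation p = 0.005, adjusted p = 0.0075) and rose by 0.32 with CD40L culture (exact permutation p = 0.01, adjusted p = 0.013). Between genotypes the mean log2 difference of the ratio was -0.28 (exact permutation p = 0.0018, adjusted p = 0.0075, and p = 0.1 with numbers as units), at -0.32, -0.31 and -0.21 in the 3 states. The fold changes of Rpl7l1 itself between genotypes were -0.26, -0.08 and -0.30 (adjusted p = 0.098, 0.83 and 0.70 by edgeR).

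Rpl36al, an intronless relative of Rpl36a, has 87.9% identity in the coding sequence. Its TPM was a mean 90.3% of that of Rpl36a in WT transitional, 73.9% in WT follicular and 56.7% in WT cultured cells, and 83.5%, 64.0% and 50.5% in Sh3gl1-/- cells. The log2 ratio fell by 0.34 with maturation and by 0.36 with CD40L culture (exact permutation p = 0.005, adjusted p = 0.0075 for both). The mean log2 difference between genotypes was -0.16 (exact permutation p = 0.0048, adjusted p = 0.0075, and p = 0.1 with numbers as units). Copies of Rpl36a held 32.5% of the summed counts, and with copies added the differences were -0.35, -0.33 and -0.14.

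Rpl22l1, which is repressed by Rpl22 in other cells, was the exception among the 4 pairs, with the paralog above its partner. The TPM of Rpl22l1 was a mean 166% of that of Rpl22 in WT transitional and 168% in WT follicular cells, and 141% and 146% in Sh3gl1-/- cells. After CD40L it spread widely, at 245, 171 and 357 CPM in WT and 304, 191 and 274 CPM in Sh3gl1-/- libraries, where Rpl22 was at 217, 166 and 197 CPM and 184, 188 and 165 CPM. The log2 ratio did not pass the test with maturation (difference 0.03, exact permutation p = 0.38), with CD40L culture (-0.15, p = 0.40) or between genotypes (-0.08, p = 0.58), where the adjusted p-values were 0.44, 0.44 and 0.58. The genotype value is a mean of opposite signs, at -0.24, -0.20 and 0.20 in transitional, follicular and cultured cells. It was 0.72 to 0.75 in WT and 0.45 to 0.56 in Sh3gl1-/- transitional libraries. In follicular libraries it was 0.65 to 0.82 and 0.47 to 0.61, also without overlap. The cultured groups had SDs of 0.45 and 0.42. The states were not tested one by one. With sequence-matched copies added, the difference with maturation was 0.15 (exact permutation p = 0.005, not adjusted), so this value depends on how copies are counted. Rpl22l1 itself rose with maturation, by 0.53 in WT and 0.61 in Sh3gl1-/- cells, and had a fold change of 0.36 ± 0.22 (adjusted p = 0.20 by edgeR) after CD40L in WT cells. Rpl22 rose by 0.66 with CD40L in WT cells and had a fold change of 0.26 (adjusted p = 0.083 by edgeR) in Sh3gl1-/- cells.

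**Figure D5:**
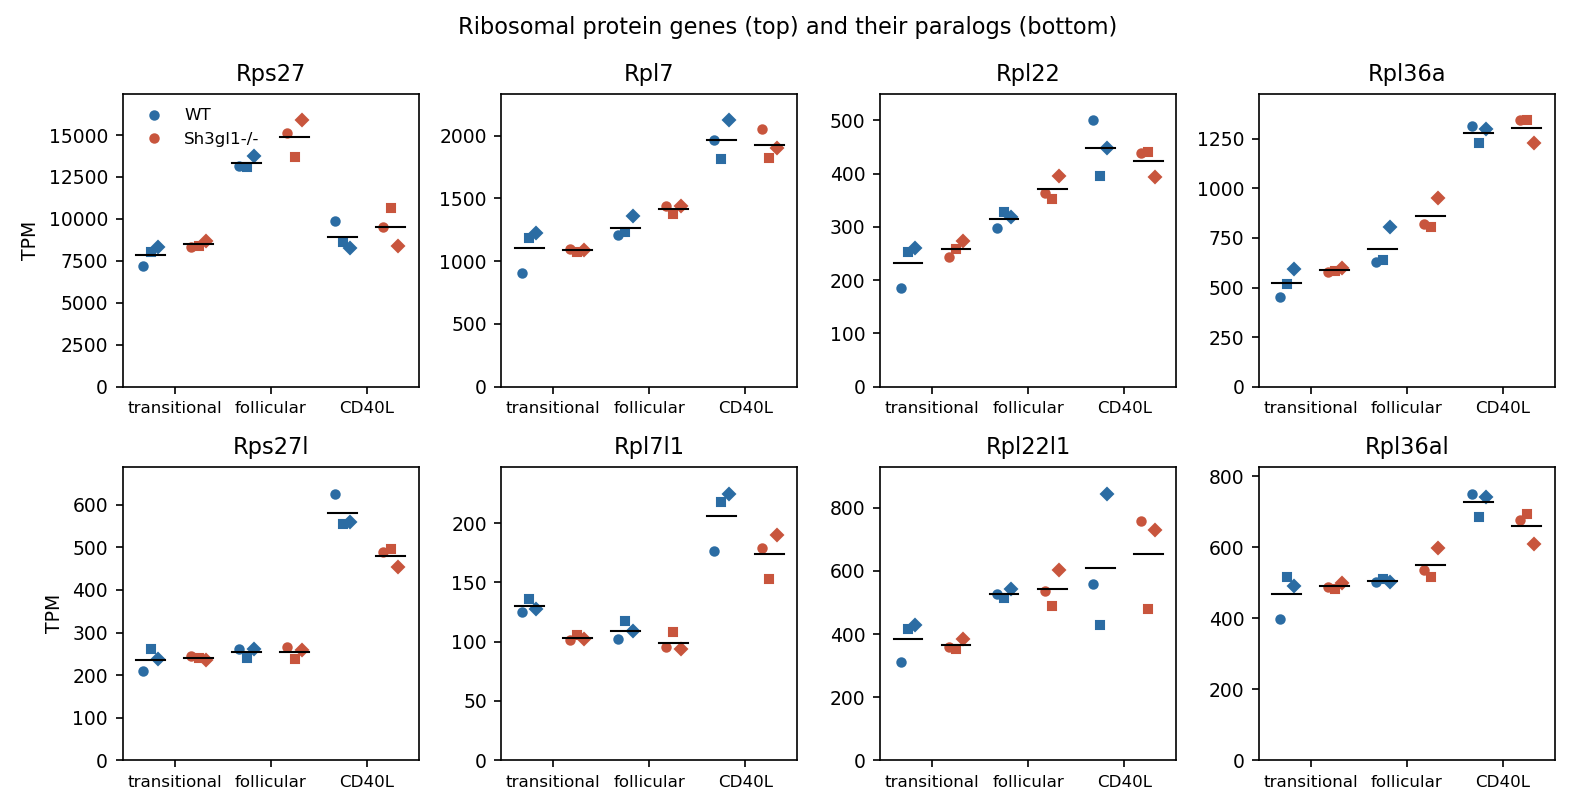
TPM of 4 ribosomal protein genes (top row) and their paralogs (bottom row) by library, with replicates 1 to 3 as circle, square and diamond, WT in blue, Sh3gl1-/- in red and group means as bars. The TPM of Rps27 is highest in follicular cells while that of Rps27l is highest after CD40L, and Rpl22l1 spreads from 428 to 845 among the 3 WT cultured libraries.

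Of the proteins tied to p53, Rpl11, which binds Mdm2 together with Rpl5, rose with maturation by 0.34 in WT and 0.43 in Sh3gl1-/- cells and with CD40L by 0.66 in WT cells. In Sh3gl1-/- cells it had a fold change of 0.16 (adjusted p = 0.29 by edgeR) after CD40L. Rpl5 rose with CD40L by 0.62 and 0.44 and with maturation by 0.37 in WT cells, on the small part of counts that it kept from its copies. Rps14, lost in the human 5q- syndrome, rose with maturation by 0.32 and 0.50 and with CD40L by 0.49 in WT cells. Rps19bp1 was at 4.42 to 9.16 CPM ex vivo and 10.8 to 17.3 CPM after CD40L, and rose by 1.03 in WT and 1.02 in Sh3gl1-/- cells. Over all comparisons 6 of the 85 genes were never called: the 3 that were not measurable, and Rpl30, Rpl34 and Rps3a1, which are among the 5 genes whose division with copies followed the replicate number.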

How the data were processed

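Messenger RNA of 18 libraries was sequenced. The labels name a stranded polyA library kit, the study's methods another kit, and whether the counting used strand is not given in the sources used here. The deposited expected counts and TPM per gene are the authors' RSEM 1.3.0 estimates after cutadapt 1.9.1 and STAR 2.5.2a on GRCm38, per the submitters' processing notes, whereas the study's methods name other alignment software. RSEM divides reads that match several genes by likelihood, so a gene and its copies share estimates. The deposited FPKM values were not used.

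Expected counts were rounded, filtered with filterByExpr by group, scaled by TMM and tested by edgeR 4.0.16 (R 4.3.3) with its quasi-likelihood test and Benjamini-Hochberg adjustment over all genes tested, at 0.05. The SE of a log2 fold change is its size divided by the root of F. Genotypes were compared in fits of 6 libraries and cell states in fits of 12. CPM used TMM sizes over 18 libraries. TPM sets levels of different genes side by side. Copies were found with blastn 2.17.0. Positions are GENCODE M21 on GRCm38, and transcript starts are from RefSeq.

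The members and lists were chosen with earlier results of these data known. Named genes were paralogs with their partners, the 5 lowest p in each direction among the called genes of a comparison, genes with well-known roles, genes called against the main direction and genes with few counts. Rps2, Rpl30, Rpl34, Rps3a1, Rpl27, Rpl12, Rpl13, Rpl37, Rps27a and Rpl35a were named after their values were seen. Some genes that the rule names are not reported here.

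Replicates are labelled as separate samples of 3 mice per group. Every pair of replicates differed beyond sampling noise (chi-square per degree of freedom 9.88 to 52.4), and the biological coefficient of variation was 18.3% to 23.1%. Deviations of same-numbered libraries correlated within a genotype, at 0.10 to 0.24 between WT transitional and follicular, 0.12 to 0.26 between Sh3gl1-/- transitional and follicular, 0.14 to 0.22 between WT follicular and cultured and 0.03 to 0.12 between Sh3gl1-/- follicular and cultured libraries. Between the genotypes they lay between -0.05 and 0.03 in follicular cells. The labels do not say that a number marks 1 mouse. In simulated counts edgeR recovered 175 of 200 changed genes in the follicular genotype comparison. It recovered 160 of 200 in the WT CD40L comparison and 118 of 200 in the difference between genotypes. Recovery of shifts as small as the median shifts of the ribosomal protein genes between genotypes was not tested.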

Additional observations from a re-analysis of the deposited data

How the results depend on the processing

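Called results were checked gene by gene only for genes named here. Of these 103 results 0 changed direction under any alternative, and 25 lost the threshold at least once. The called results of other genes were not checked in this way. DESeq2 called 2 genes between genotypes in transitional, 20 in follicular and 1 in cultured cells, and 2 in the difference in maturation. Testing all genes with at least 1 count called 2, 36 and 2 between genotypes, 3 in the difference in maturation and 1 in that of the CD40L response, and a minimum of 1 CPM in every library called 1 in follicular cells. The replicate block called 1 gene in transitional and 23 in follicular cells between genotypes, although the numbers do not pair the genotypes, so this says nothing of the size of the effect. Within genotypes it called 68 and 71 genes for maturation and 76 and 48 for CD40L. A separate replicate block within each genotype (added once the data were seen) called 73 and 74 for maturation and 78 and 46 for CD40L; it changed the calls of Rpl7l1, Rps27rt, Rpl37 and Rpl36al among the named genes. Leaving out 1 library gave 0 to 2, 0 to 3 and 0 genes between genotypes, 34 to 65 (WT) and 49 to 71 (Sh3gl1-/-) for maturation, 74 to 78 and 35 to 57 for CD40L, and 0 to 1 and 0 for the differences. Between genotypes in follicular cells, summing named pseudogenes turned Rpl3 to 0.23 and Rpl34 to 0.24. Summing sequence-matched copies, an alternative chosen after seeing the data, turned Rpl3 to 0.24, Rpl34 to 0.24, Rpl5 to 0.28 and Rps3a1 to 0.29. Leaving out 1 library gave Rpl34 between -0.99 and 0.18, Rpl5 between -0.076 and 0.032 and Rps3a1 between -0.39 and 0.20, the last without Sh3gl1-/- replicate 3. The log2 ratio of Rpl22l1 to Rpl22 between genotypes ran from -0.13 to 0.0092 with 1 library left out, above 0 without cultured Sh3gl1-/- replicate 2 or cultured WT replicate 3. Taking same-numbered libraries of a genotype as 1 unit (added once the data were seen), a replicate block for the paralog ratios, left none of the 12 past the threshold after adjustment. The causes were not tested. Depth left Rpl10l, Rpl3l and Rpl39l unmeasured.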
